A study of Mus musculus with 6 samples.

Results

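The genes described here are 33 genes of cholesterol and fatty acid synthesis, of the control of that synthesis by sterols, and of cholesterol export. They were chosen by gene symbol from a table of 33300 features, and all 33 symbols were found in it. Levels are in FPKM, reads per kb of transcript scaled to the assigned reads of the library, so levels of different genes can be set side by side.

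Each RNA sample came from cells of a mouse of the SLE1.2.3 line (3 mice, numbered 1 to 3 in the labels) or of a control mouse (3 mice, genotype labelled WT). Mice of that name are lupus-prone and combine the Sle1, Sle2 and Sle3 risk intervals, which lie on chromosomes 1, 4 and 7. The mice were females matched for age; neither the ages nor the strain of the controls are stated in the labels. In both groups naive CD4 T cells were stimulated on plates coated with antibodies to CD3 and CD28 for 5 days under conditions for Th17 cells, the helper T cells that make interleukin-17. The medium held IL-6 at 50 ng/mL, IL-23 and IL-1β at 10 ng/mL each, TGF-β1 at 1 ng/mL and blocking antibodies to IL-4 and interferon-γ at 10 µg/mL each. The comparison asks how these genes differ between Th17 cultures of lupus-prone and healthy mice.

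Cells build cholesterol from acetyl-CoA by way of mevalonate, squalene and lanosterol. The transcription factors SREBP1 and SREBP2, encoded by Srebf1 and Srebf2, turn on the enzymes of this route and of fatty acid synthesis when sterols run low; SCAP escorts them to the Golgi for cleavage, and INSIG proteins hold SCAP back when sterols are plentiful. Surplus sterol acts through the LXR receptors, which raise the exporters Abca1 and Abcg1. Activated T cells raise lipid synthesis as they grow, and intermediates of the sterol route can act as ligands of RORγt, the lineage factor of Th17 cells.

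The SLE1.2.3 libraries held about 61700000 to 83500000 assigned reads and the control libraries about 29700000 to 56800000, and the least read member in any library still had 259 reads (Fdps). Control library 3 had the fewest reads, and 2.43% of them were ribosomal RNA, against 0.21% to 0.30% in the other libraries. Its FPKM sum was 386361, against 297266 to 313550 in the others, so rescaling to a common FPKM sum lowers the values of that library. On the first principal component of all tested genes, which held 78.4% of the variance, SLE1.2.3 libraries 1, 2 and 3 scored 4.25, 33.9 and 49.0, and the controls lay between -29.5 and -28.6. Values are given for mouse 1, 2 and 3 in that order throughout. Summed RNA of 9 γδ and innate-like T cell markers was 59.0, 271 and 601 FPKM in SLE1.2.3 libraries, against 3.10 to 3.87 FPKM in the controls. Summed RNA of 8 CD8 T and NK cell markers was 43.5, 151 and 249.95 FPKM in those libraries, against 12.4 to 13.5 FPKM in the controls, while Ncr1, a defining NK cell gene, stayed at or below 0.032 FPKM. Cd4 RNA measured 257, 144 and 71.6 FPKM in SLE1.2.3 libraries, against 246, 264 and 253 FPKM in control libraries. The part of these other cells in the results was not tested, and in such bulk RNA fewer cells of a type cannot be told apart from less RNA per cell. Of the 10 CD4 T and Th17 markers, Il17a had 1676, 2274 and 2135 FPKM in SLE1.2.3 libraries, against 801, 616 and 394 FPKM in controls. The other 9 summed to 2128, 1625 and 1370 FPKM in SLE1.2.3 libraries, against 1863, 1806 and 1606 FPKM in controls, and overlapped. B and plasma cell markers (8) summed to 127 to 184 FPKM in SLE1.2.3 libraries, against 56.2 to 63.3 FPKM in controls, and myeloid markers (6) to 3.10 to 12.1 FPKM in SLE1.2.3 libraries, against 8.29 to 9.65 FPKM in controls. The 4 adipocyte and liver markers summed to at most 0.043 FPKM in SLE1.2.3 libraries and 0.051 FPKM in controls.

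Among the 33 genes 2 fell in SLE1.2.3 cells and none rose. All 33 passed the filter of a mean of at least 1 FPKM. The genes that fell were the elongase gene Elovl6 and the sterol carrier gene Stard4 (limma on log2(FPKM + 1), Benjamini-Hochberg adjusted p below 0.05 over all features tested). The other 31 did not pass, which does not show that they were equal. With voom on recovered reads 0 rose and 1 fell, and before adjustment 1 gene with a higher and 5 with a lower estimate had a p under 0.05 in limma. Among all 11378 features tested 15.2% passed, 9.65% higher and 5.58% lower, so 2 of 33 lower is near the share of all genes. The higher share of calls was 63.4%, against 73.8% with libraries rescaled to a common FPKM sum, which moved the median change of all features to 0.11, and 51.1% with quantile normalization.

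Those 6 genes are 18.2% of the 33, against 35.0% of all features tested with an unadjusted p under 0.05. The median log2 change of the 33 genes was -0.16, against 0.01 for all features, with 24 estimates below 0 and 9 above. It was -0.07 without SLE1.2.3 mouse 3 (21 below 0), -0.06 without SLE1.2.3 mice 2 and 3 (20), -0.05 with a common FPKM sum (18), which moved all features by the shift given above, and -0.04 with array weights (21). For 28 of the 33 the 95% interval of the change lay wholly between -1 and 1 on the log2 scale. The same held for 9868 of all 11378 features tested, so this count is near the share of all genes. In 8 genes all SLE1.2.3 values lay below all control values, and in 0 all lay above; the 8 were Acat2, Hmgcs1, Sqle, Stard4, Acly, Elovl6, Fads1 and Fads2, or 24.2% of the 33. Of all features tested 41.5% had groups that did not overlap, 17.7% with SLE1.2.3 lower and 23.9% with SLE1.2.3 higher.

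**Figure D1:**
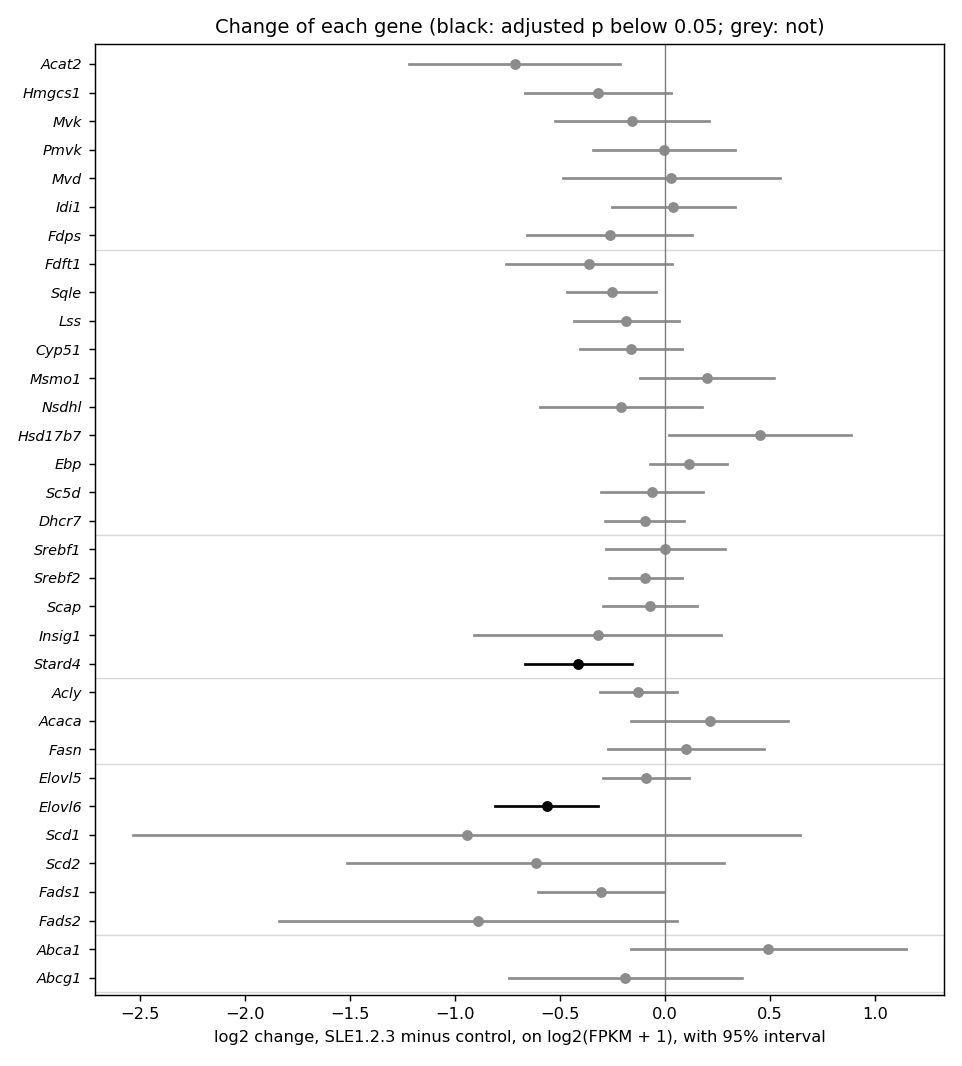
Log2 change of each of the 33 genes, SLE1.2.3 minus control, on the log2(FPKM + 1) scale (horizontal axis), with its 95% interval from limma (lines; n = 3 per group). Genes run down the page by role, and black marks an adjusted p below 0.05. Elovl6 (-0.56) and Stard4 (-0.41) are black, and the intervals of Scd1, Scd2 and Fads2 are the widest.

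SLE1.2.3 library 3 stood apart. Of the 33 genes, 24 (72.7%) had their lowest value of the 6 libraries there, while 26.3% of all features tested did. The genes had a median distance from the control mean of -0.06, -0.05 and -0.34 on the log2 scale in SLE1.2.3 libraries 1, 2 and 3, against 0.02, 0.01 and 0.03 for all features. This is the library with the highest γδ and CD8 marker RNA given above, and the part of those cells was not tested. These genes share regulators and are not independent of each other, so the counts are descriptions.

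**Figure D2:**
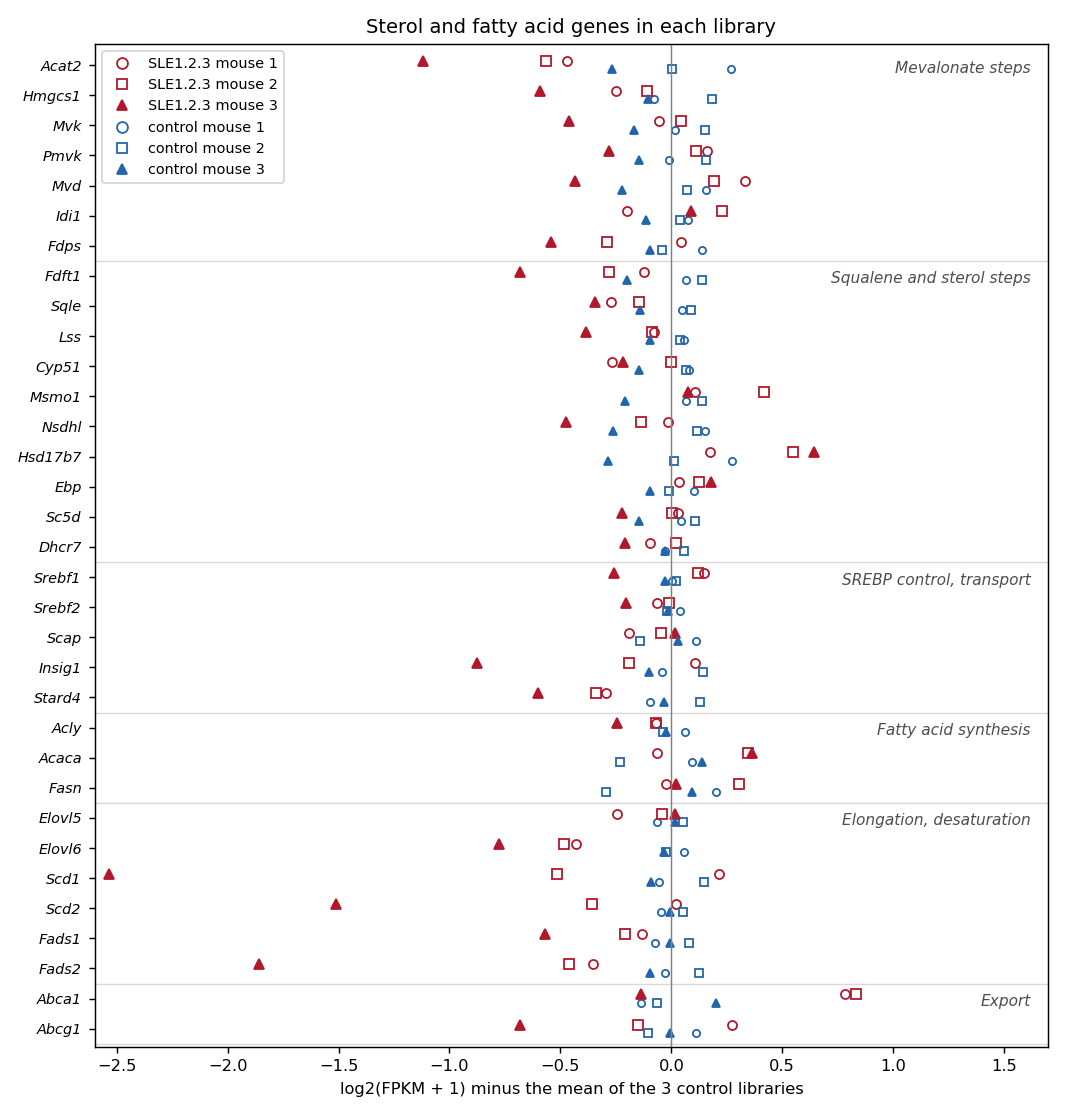
Level of each of the 33 genes in each library, as log2(FPKM + 1) minus the mean of the 3 control libraries (horizontal axis). Red marks SLE1.2.3 and blue marks control libraries; circle, square and triangle are mouse 1, 2 and 3. SLE1.2.3 mouse 3 is the leftmost point in 24 of the 33 genes.

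The mevalonate steps run from acetyl-CoA to farnesyl pyrophosphate, and none of their 7 genes passed in limma or voom (1 had an unadjusted p under 0.05). Acat2, a thiolase that joins acetyl-CoA units, had 20.0, 18.7 and 12.4 FPKM in SLE1.2.3 libraries, against 34.0, 28.1 and 23.1 FPKM in controls. All SLE1.2.3 values lay below all control values, and the log2 change was -0.72 ± 0.21 (SE; limma adjusted p = 0.065; 95% interval -1.22 to -0.21). Leaving out SLE1.2.3 mouse 1 let Acat2 pass (adjusted p = 0.026), as did array weights (0.0036; range over all alternatives 0.0036 to 0.27). Acat2 shares 445 bases at 98.7% identity with transcripts of Tcp1, a highly expressed gene with a mean of 89.9 FPKM in SLE1.2.3 and 117 FPKM in control libraries, so part of its reads may be assigned uncertainly.

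Hmgcs1, which makes HMG-CoA, had 29.5, 32.6 and 23.1 FPKM in SLE1.2.3 libraries, against 33.4, 40.2 and 32.7 FPKM in controls. Its groups did not overlap either, by a margin smaller than the spread within either group (log2 change -0.32 ± 0.14, SE; limma adjusted p = 0.17). Fdps, the farnesyl pyrophosphate synthase gene, had the lowest level of all 33 genes, with a mean of 1.77 FPKM in SLE1.2.3 and 2.29 FPKM in control cells. It has 4 processed pseudogenes elsewhere in the genome that match it at 96.1% identity or more, so its level is uncertain.

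The mevalonate kinase genes Mvk and Pmvk, the decarboxylase gene Mvd and the isomerase gene Idi1 had overlapping groups. Their log2 changes lay between -0.16 (Mvk) and 0.04 (Idi1). Mvk ranged over 5.52 to 8.26 FPKM in SLE1.2.3 libraries, against 6.99 to 8.96 FPKM in controls, and Pmvk over 16.4 to 22.6 FPKM in SLE1.2.3 libraries, against 18.1 to 22.6 FPKM in controls. Idi1 ranged over 11.2 to 15.4 FPKM in SLE1.2.3 libraries, against 11.9 to 13.8 FPKM in controls. Mvd had 42.1, 38.0 and 24.3 FPKM in SLE1.2.3 libraries, against 37.0, 34.8 and 28.3 FPKM in controls, so its SLE1.2.3 values lay on both sides of the control values.

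From squalene to cholesterol, none of the 10 genes passed in limma or voom (2 had an unadjusted p under 0.05 in limma). Sqle, the squalene epoxidase gene, whose product catalyses a rate-limiting step, had 16.9, 18.5 and 16.0 FPKM in SLE1.2.3 libraries, against 21.3, 22.0 and 18.6 FPKM in controls. The groups lay next to each other without overlap, and the log2 change was -0.25 ± 0.09 (SE; limma adjusted p = 0.097). Fdft1, the squalene synthase gene, averaged 13.5 ± 2.77 FPKM in SLE1.2.3 and 17.5 ± 2.21 FPKM in control cells (SD, n = 3 each). Fdft1 overlaps Ctsb, whose transcripts share 774 bases with it and which had a mean of 49.4 FPKM over all libraries, so its reads cannot be fully separated.

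Hsd17b7, which reduces the 3-keto group of sterol intermediates, had the highest estimate of the sterol enzymes. Its levels were 6.94, 9.28 and 9.99 FPKM in SLE1.2.3 libraries, against 7.50, 6.10 and 4.78 FPKM in controls (log2 change 0.45 ± 0.18, SE; limma adjusted p = 0.13). SLE1.2.3 library 1 lay within the control range and libraries 2 and 3 lay above it. Without SLE1.2.3 mouse 1 the gene passed (log2 change 0.59; adjusted p = 0.033; range over all alternatives 0.0031 to 0.69). Hsd17b7 lies on chromosome 1 (169949535 to 169969241, mm10), one of the 3 chromosomes that carry a Sle interval; whether it lies inside the interval was not determined.

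Dhcr7, which makes the last reduction in one branch of the route, lies on chromosome 7 (143823145 to 143848410, mm10), another chromosome with a Sle interval. It measured 6.44, 7.07 and 5.88 FPKM in SLE1.2.3 libraries, against 6.80, 7.28 and 6.81 FPKM in controls, with a 95% interval of the log2 change from -0.29 to 0.09. The sterol demethylation genes Cyp51, Msmo1 and Nsdhl, the cyclase gene Lss, the isomerase gene Ebp and the desaturase gene Sc5d had overlapping groups and log2 changes between -0.21 (Nsdhl) and 0.20 (Msmo1).

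Cyp51 ranged over 30.05 to 36.3 FPKM in SLE1.2.3 libraries, against 32.7 to 38.5 FPKM in controls, and Msmo1 over 9.53 to 12.4 FPKM in SLE1.2.3 libraries, against 7.66 to 10.0 FPKM in controls. Nsdhl ranged over 8.81 to 12.5 FPKM in SLE1.2.3 libraries, against 10.4 to 14.1 FPKM in controls, and Lss over 5.73 to 7.33 FPKM in SLE1.2.3 libraries, against 7.22 to 8.14 FPKM in controls. Msmo1 and Ebp had estimates above 0 and the other 4 of these genes below 0. Ebp ranged over 19.4 to 21.6 FPKM in SLE1.2.3 libraries, against 17.7 to 20.4 FPKM in controls, and Sc5d over 13.9 to 16.8 FPKM in SLE1.2.3 libraries, against 14.7 to 17.7 FPKM in controls. Summed over the 17 mevalonate and sterol enzymes, RNA came to 277, 290.0 and 230.0 FPKM in SLE1.2.3 libraries, against 310.3, 311 and 259 FPKM in controls. The groups overlapped, since control 3 lay below SLE1.2.3 libraries 1 and 2.

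SREBP factors bind sterol regulatory elements in promoters, with help from NF-Y, which binds the CCAAT box. RefSeq promoter windows from 250 bases before to 50 bases after the gene start (GRCm38.p6, the mm10 assembly) were matched for 25 of the 33 genes. Fdps, Fdft1, Sqle, Stard4, Scd1, Scd2, Fads1 and Abcg1 had no window. The element, searched as TCACNCCAC or TCACNCCAT on both strands, was found in 3 of the 25 (12%) and in 2.27% of 27025 genes with a window. The CCAAT box was found in 19 of the 25 (76.0%) against 41.1% of all genes. Among the mevalonate and sterol enzymes with a window it was found in 13 of 14. Among genes of fatty acid synthesis, elongation and desaturation with a window it was found in 3 of 6. The GC box GGGCGG was found in 80.0% of the 25 against 38.2% and the E-box CACGTG in 28.0% against 8.09%. Of those 6 fatty acid genes, 2 (33.3%) had the GC box, 1 the E-box and 0 the sterol element. A match of letters describes the window and says nothing on binding in these cells.

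The 3 windows with the sterol element, and that of Elovl6, the gene with the smallest adjusted p of the 33, are shown 5′ to 3′ on the strand of the gene. Capitals mark the sterol element and the CCAAT box (ATTGG on the other strand); matches of these motifs did not overlap in these windows. The first is chr13:119690101-119690400 on the plus strand, the second chr8:64733529-64733828 on the minus strand, the third chr15:82147019-82147318 on the plus strand and the fourth chr3:129532136-129532435 on the plus strand.
Hmgcs1: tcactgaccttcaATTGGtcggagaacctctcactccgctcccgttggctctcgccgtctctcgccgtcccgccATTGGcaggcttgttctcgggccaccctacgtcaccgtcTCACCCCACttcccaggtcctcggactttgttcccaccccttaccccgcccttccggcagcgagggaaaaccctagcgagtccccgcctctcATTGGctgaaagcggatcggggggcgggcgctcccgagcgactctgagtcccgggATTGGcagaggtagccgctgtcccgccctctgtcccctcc
Msmo1: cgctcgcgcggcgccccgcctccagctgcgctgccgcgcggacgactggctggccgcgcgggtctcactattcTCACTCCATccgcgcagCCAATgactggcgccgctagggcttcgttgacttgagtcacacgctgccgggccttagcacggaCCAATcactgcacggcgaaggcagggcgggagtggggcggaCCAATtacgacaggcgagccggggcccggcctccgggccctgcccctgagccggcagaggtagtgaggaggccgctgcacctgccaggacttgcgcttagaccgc
Srebf2: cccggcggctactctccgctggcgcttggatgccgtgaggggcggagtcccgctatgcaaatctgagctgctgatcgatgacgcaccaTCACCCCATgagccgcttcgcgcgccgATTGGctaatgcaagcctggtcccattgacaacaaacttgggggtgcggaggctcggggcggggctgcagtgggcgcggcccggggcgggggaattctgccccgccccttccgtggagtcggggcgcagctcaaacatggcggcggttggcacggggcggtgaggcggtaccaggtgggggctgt
Elovl6: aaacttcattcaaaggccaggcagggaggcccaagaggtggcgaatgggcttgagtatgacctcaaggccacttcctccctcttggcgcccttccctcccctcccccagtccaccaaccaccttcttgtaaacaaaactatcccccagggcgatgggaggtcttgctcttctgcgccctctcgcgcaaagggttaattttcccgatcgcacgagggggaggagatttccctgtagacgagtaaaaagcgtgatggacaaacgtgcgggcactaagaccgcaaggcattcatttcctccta
Hmgcs1 holds 1 sterol element and 4 CCAAT boxes, Msmo1 1 and 3, Srebf2 1 and 1, and the Elovl6 window holds 0 of either. Hmgcs1 and Msmo1, which carry the same kinds of motif, had log2 changes of -0.32 and 0.20, and neither passed.

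Among the genes that control the route, those for the SREBP factors themselves had overlapping groups and narrow intervals. Srebf1 had 54.4, 53.5 and 40.8 FPKM in SLE1.2.3 libraries, against 49.2, 49.9 and 48.1 FPKM in controls. Its log2 change was 0.002 with a 95% interval from -0.28 to 0.29, well inside a change of 1 in either direction. The SLE1.2.3 values lay on both sides of the narrow control range. Srebf2 had 66.9, 69.4 and 60.6 FPKM in SLE1.2.3 libraries, against 71.8, 69.0 and 69.2 FPKM in controls (95% interval -0.27 to 0.08). Srebf2 RNA was 1.23 to 1.49 times Srebf1 RNA in SLE1.2.3 libraries and 1.38 to 1.46 times in controls. Scap, the escort protein gene, had 8.95, 9.99 and 10.5 FPKM in SLE1.2.3 libraries, against 11.3, 9.28 and 10.6 FPKM in controls (95% interval -0.30 to 0.15).

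Insig1, the SCAP retention gene and itself a SREBP target, had 63.3, 51.3 and 31.5 FPKM in SLE1.2.3 libraries, against 57.0, 64.9 and 54.7 FPKM in controls. Library 1 lay within the control range and library 3 at 53.5% of the control mean, and the change did not pass (log2 change -0.32; limma adjusted p = 0.38; 95% interval -0.91 to 0.27).

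Stard4, which carries cholesterol between membranes, fell in SLE1.2.3 cells. It had 28.3, 27.3 and 22.7 FPKM in SLE1.2.3 libraries, against 32.6, 38.3 and 34.1 FPKM in controls, and all SLE1.2.3 values lay below all control values. The mean was 74.6% of the control mean, with a log2 change of -0.41 ± 0.11 (SE; limma adjusted p = 0.048). The call was lost on leaving out SLE1.2.3 mouse 2 (adjusted p = 0.14) or 3 (0.072), without both (0.21), and without control mouse 1 (0.10), 2 (0.15) or 3 (0.12); among other settings it also ended with no filter (0.10), a common FPKM sum (0.33), no variance trend (0.054) and voom (0.051). Over all alternatives its adjusted p ran from 0.0018 to 0.33, and the direction was the same.

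None of the 3 core genes of fatty acid synthesis passed in limma or voom (0 had an unadjusted p under 0.05 in limma). Acly, which makes cytosolic acetyl-CoA from citrate, had 83.4, 83.4 and 73.6 FPKM in SLE1.2.3 libraries, against 91.3, 85.0 and 86.1 FPKM in controls. Its groups did not overlap, yet the log2 change was -0.13 ± 0.08 (SE; limma adjusted p = 0.28). Acaca encodes acetyl-CoA carboxylase, which commits carbon to fatty acids and which Th17 cells of mice need for their development. It had 5.34, 7.43 and 7.54 FPKM in SLE1.2.3 libraries, against 6.09, 4.65 and 6.31 FPKM in controls (95% interval of the log2 change -0.16 to 0.59). Fasn, the fatty acid synthase gene, had 46.1, 58.1 and 47.6 FPKM in SLE1.2.3 libraries, against 53.9, 38.0 and 50.1 FPKM in controls (95% interval -0.27 to 0.47). For both genes the SLE1.2.3 and control values were mixed.

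Of the 6 enzymes that lengthen and desaturate fatty acids 1 passed, and the median log2 change of the 6 was -0.59, or -0.17 without SLE1.2.3 mouse 3 and -0.19 without SLE1.2.3 mice 2 and 3. Elovl6, which extends palmitate to stearate, fell in SLE1.2.3 cells. It had 13.4, 12.8 and 10.3 FPKM in SLE1.2.3 libraries, against 19.1, 18.0 and 17.9 FPKM in controls. The lowest control lay above the highest SLE1.2.3 value, and the SLE1.2.3 mean was 66.2% of the control mean. The log2 change was -0.56 ± 0.10 (SE; limma adjusted p = 0.021; 95% interval -0.81 to -0.32). Elovl6 lies on chromosome 3 (129532355 to 129638495, mm10), which carries no Sle interval. The fall did not rest on SLE1.2.3 library 3, since it passed without that library (log2 change -0.46; adjusted p = 0.019). It no longer passed without SLE1.2.3 mouse 2 (adjusted p = 0.079), without control mouse 1, 2 or 3 (0.085, 0.082 and 0.078), with both SLE1.2.3 mouse 2 and mouse 3 absent (0.057), with no filter on low values (0.054) or with values rescaled to a common FPKM sum (0.11). Over all alternatives its adjusted p ran from 0.00019 to 0.11, with log2 changes between -0.63 and -0.43. Elovl5, which lengthens polyunsaturated chains, had 24.0, 27.8 and 29.0 FPKM in SLE1.2.3 libraries, against 27.3, 29.7 and 28.9 FPKM in controls, with overlapping groups.

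**Figure D3:**
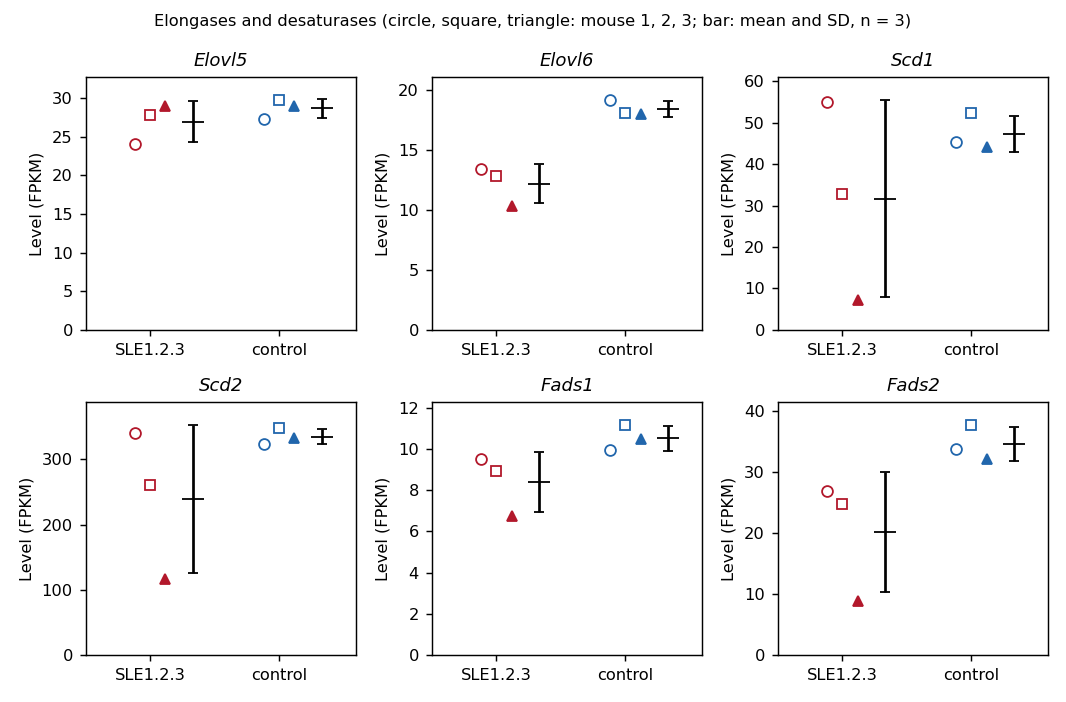
Levels in FPKM (vertical axes, from 0) of Elovl5, Elovl6, Scd1, Scd2, Fads1 and Fads2 in SLE1.2.3 (red, left) and control (blue, right) libraries; circle, square and triangle are mouse 1, 2 and 3, and black bars give mean and SD (n = 3). Elovl6 is lower in all 3 SLE1.2.3 libraries, while Scd1, Scd2 and Fads2 are far lowest in SLE1.2.3 mouse 3.

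Scd1 and Scd2 encode stearoyl-CoA desaturases, which place the first double bond in saturated chains, and both are SREBP1 and LXR targets. Scd2 had the highest level of all 33 genes, with 340.2, 261 and 117 FPKM in SLE1.2.3 libraries, against 324, 348 and 333 FPKM in controls. Scd1 had 54.9, 32.7 and 7.31 FPKM in SLE1.2.3 libraries, against 45.3, 52.3 and 44.2 FPKM in controls. SLE1.2.3 library 1 lay within the control range for Scd2 and above it for Scd1, whereas library 3 was at 34.9% of the control mean for Scd2 and 15.5% for Scd1. Neither passed, and the intervals were wide (log2 change of Scd1 -0.95, 95% interval -2.53 to 0.64; of Scd2 -0.61, -1.51 to 0.28; limma adjusted p = 0.35 and 0.28). Without SLE1.2.3 mouse 3 the log2 changes were -0.15 and -0.17.

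Scd2 and Scd1 lie 87.6 kb apart on chromosome 19 (44293674 to 44306864 and 44394455 to 44407879, mm10), and share 623 bases at 95.5% identity, so some reads may be split between them. The ratio of Scd2 to Scd1 RNA was 6.20, 7.99 and 16.0 in SLE1.2.3 libraries, against 7.16, 6.65 and 7.54 in controls, so in SLE1.2.3 library 3 Scd1 lay further below its control level than Scd2 did.

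Fads2 and Fads1, the Δ6 and Δ5 desaturase genes of polyunsaturated fatty acid synthesis, lie 81.1 kb apart, also on chromosome 19 (10062765 to 10101746 and 10182888 to 10196877, mm10). Fads2 had 26.8, 24.7 and 8.76 FPKM in SLE1.2.3 libraries, against 33.8, 37.6 and 32.2 FPKM in controls. All SLE1.2.3 values lay below the controls, with library 3 at 25.4% of the control mean (log2 change -0.89 ± 0.39, SE; limma adjusted p = 0.16). Without SLE1.2.3 mouse 3 the estimate was smaller, at -0.41, with an SE of 0.09, and passed (adjusted p = 0.045); over all alternatives the adjusted p ran from 0.041 to 0.33. Fads1 had 9.49, 8.95 and 6.75 FPKM in SLE1.2.3 libraries, against 9.94, 11.2 and 10.5 FPKM in controls. Its groups did not overlap (log2 change -0.31 ± 0.12, SE; limma adjusted p = 0.14).

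Summed over Scd1, Scd2, Fads1 and Fads2, desaturase RNA was 431, 328 and 139.8 FPKM in SLE1.2.3 libraries, against 413, 449 and 419.9 FPKM in controls. Most of each sum was Scd2, with 340.2, 261 and 117 FPKM in SLE1.2.3 libraries, against 324, 348 and 333 FPKM in controls. In the sum SLE1.2.3 library 1 lay within the control range. That library lay below all controls for Fads1 and Fads2 and above them for Scd1. The library with the least desaturase RNA had the most γδ marker RNA (601 FPKM) and the most CD8 and NK marker RNA (249.95 FPKM), and the part of those cells was not tested. Summed RNA of 8 cycling genes was 487, 473 and 584 FPKM in SLE1.2.3 libraries, against 691, 667 and 646 FPKM in controls, so library 3 was not the lowest in those.

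**Figure D4:**
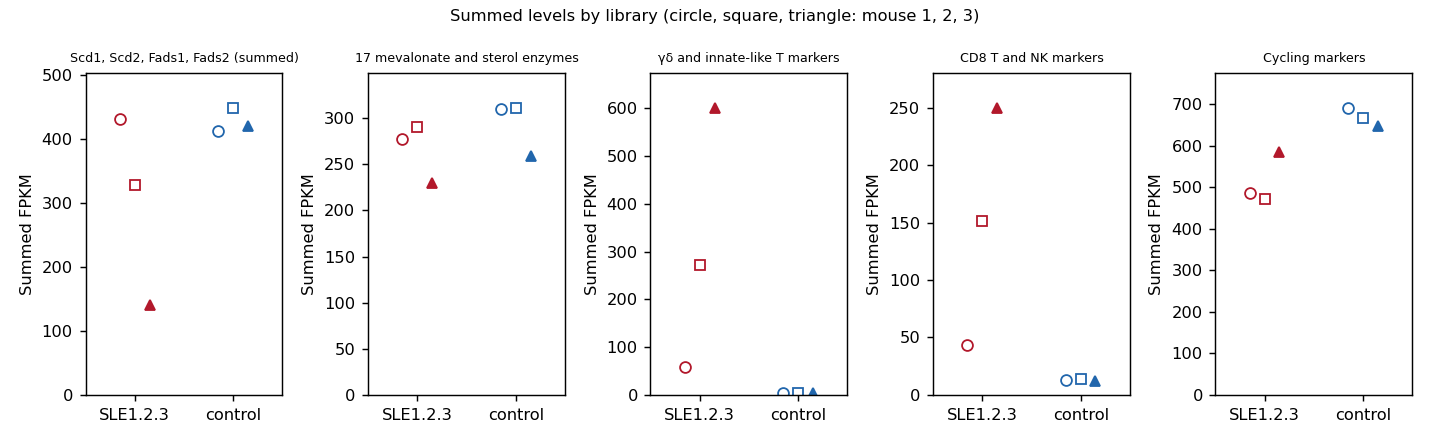
Summed FPKM (vertical axes, from 0) in SLE1.2.3 (red, left) and control (blue, right) libraries of 4 desaturases, 17 mevalonate and sterol enzymes, and markers of γδ and innate-like T cells, CD8 T and NK cells, and cycling cells; circle, square and triangle are mouse 1, 2 and 3. SLE1.2.3 mouse 3 has the least desaturase RNA (139.8 FPKM, most of it Scd2) and the most γδ marker RNA (601 FPKM).

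The exporters Abca1 and Abcg1 move cholesterol out of the cell and are textbook LXR targets. Abca1, on chromosome 4 (53030787 to 53159895, mm10), the remaining chromosome with a Sle interval, had 4.65, 4.83 and 1.98 FPKM in SLE1.2.3 libraries, against 1.98, 2.13 and 2.77 FPKM in controls. SLE1.2.3 libraries 1 and 2 lay above all controls and library 3 lay just below them all (log2 change 0.49 ± 0.27, SE; limma adjusted p = 0.24). Without SLE1.2.3 mouse 3 Abca1 passed, with a log2 change of 0.81 (adjusted p = 0.020; range over all alternatives 0.0014 to 0.54). Abcg1 had 14.9, 10.9 and 7.20 FPKM in SLE1.2.3 libraries, against 13.2, 11.2 and 12.1 FPKM in controls, and its SLE1.2.3 values spread to both sides of the controls.

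Other genes of lipid metabolism, taken from a list of 69 of which 51 were tested, included 7 that rose and 2 that fell. The other 42 did not pass. The 7 include Me1, which passed the filter on the mean through the SLE1.2.3 libraries alone and so could be called only as higher. Of all features tested 9.65% were higher and 5.58% lower, and the counts of small groups given next are descriptions beside those shares. Their median log2 change was 0.08, against -0.16 for the 33 genes and 0.01 for all features.

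The LXR, export, storage and oxysterol group had 4 of 11 tested genes that rose (3 in voom) and 0 that fell in either. With a lower estimate, 0 had an unadjusted p under 0.05. The group mixes several roles, and its count does not measure LXR activity. Soat2, which makes cholesterol esters for storage, had 4.91, 6.78 and 4.69 FPKM in SLE1.2.3 libraries, against 2.17, 2.90 and 2.02 FPKM in controls (log2 change 0.94 ± 0.16, SE; limma adjusted p = 0.018). Its related gene Soat1 had 5.50, 7.85 and 10.0 FPKM in SLE1.2.3 libraries, against 4.42, 5.12 and 5.39 FPKM in controls, without overlap, and did not pass (adjusted p = 0.11). Abca7, a lipid transporter gene of the Abca1 family, rose by 0.59 on the log2 scale (limma adjusted p = 0.017), with 48.9, 56.7 and 61.5 FPKM in SLE1.2.3 libraries, against 36.9, 34.6 and 38.1 FPKM in controls.

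Gramd1a, which moves cholesterol from the plasma membrane to the endoplasmic reticulum, had 95.6, 79.9 and 73.3 FPKM in SLE1.2.3 libraries, against 56.0, 55.8 and 54.6 FPKM in controls (log2 change 0.56 ± 0.10, SE; limma adjusted p = 0.022). Osbpl5, a sterol and lipid transfer protein gene, rose by 1.11 on the log2 scale, with 2.20, 5.49 and 5.69 FPKM in SLE1.2.3 libraries, against 1.29, 1.39 and 1.53 FPKM in controls (limma adjusted p = 0.049). Gramd1a and Osbpl5 both lie on chromosome 7, and Elovl1, described below, lies on chromosome 4. Whether any of them lies inside a Sle interval was not determined. The remaining genes of this list that passed lie on chromosomes without a Sle interval.

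In the group of SREBP control and sterol uptake, 2 of 13 tested genes fell and 0 rose in limma and in voom; 2 of those with a higher estimate had an unadjusted p under 0.05. Scarb1, the receptor that takes up cholesterol from high-density lipoprotein, had 5.44, 4.54 and 3.34 FPKM in SLE1.2.3 libraries, against 8.71, 8.64 and 8.06 FPKM in controls (log2 change -0.82 ± 0.14, SE; limma adjusted p = 0.020). Npc1, which releases cholesterol from lysosomes, had 5.20, 4.51 and 4.38 FPKM in SLE1.2.3 libraries, against 7.34, 7.10 and 6.36 FPKM in controls (log2 change -0.48; adjusted p = 0.021). For both genes all SLE1.2.3 values lay below all control values, SLE1.2.3 library 1 included.

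Of 21 tested fatty acid genes on the list, 3 rose (1 in voom) and 0 fell in either; 3 with a lower estimate had an unadjusted p under 0.05. Me1, the cytosolic malic enzyme gene, which supplies NADPH for fatty acid synthesis, had 1.64, 4.51 and 3.38 FPKM in SLE1.2.3 libraries, against 0.062, 0.041 and 0.061 FPKM in controls (log2 change 1.92 ± 0.26, SE; limma adjusted p = 0.010). The size depends on the pseudocount: the log2 change was 4.30 with a pseudocount of 0.1 and 5.67 with voom, and the call ended without control mouse 1, 2 or 3 (adjusted p = 0.054, 0.056 and 0.054; range over all alternatives 2.4e-05 to 0.056). Me1 passed the filter on the mean through the SLE1.2.3 libraries alone, so it could pass the test only as a higher gene. Elovl1, an elongase of saturated very long chains, rose by 0.37 on the log2 scale, with 27.4, 31.9 and 32.0 FPKM in SLE1.2.3 libraries, against 25.5, 22.9 and 21.4 FPKM in controls (limma adjusted p = 0.048). Aldh3a2, a fatty aldehyde dehydrogenase gene, rose by 0.53, with 6.58, 9.01 and 9.51 FPKM in SLE1.2.3 libraries, against 5.56, 5.44 and 5.21 FPKM in controls (limma adjusted p = 0.043). Each of these genes had all SLE1.2.3 values above all control values. Elovl1 thus rose where Elovl6 fell; the difference between these changes was not tested. Lpin1, a phosphatidate phosphatase gene under SREBP control, had 7.25, 4.74 and 2.20 FPKM in SLE1.2.3 libraries, against 9.45, 11.1 and 10.0 FPKM in controls; it did not pass (adjusted p = 0.071) and was singled out after its values were seen. These 9 calls were made in the same 6 libraries, and without SLE1.2.3 mouse 2 or control mouse 1, 2 or 3 between 0 and 1 of the list passed.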

How the data were processed

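The authors deposited FPKM values for 33300 features in 6 libraries; value times length in kb sums to 1000000 per library. Poly(A) RNA was made into libraries with the SMARTER mRNA kit, per the labels' protocols. Per the submitters' processing notes, mm10, STAR 2.7.3a, featureCounts 2.0.0, cutadapt 2.10, DESeq2 1.24.0 and FastQC 0.11.9 were used. Strand setting and annotation release: not given in the sources used here, so reads of antisense or overlapping genes cannot be told apart.

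Reads per library were recovered from the FPKM steps: 100.0% of values under 30 reads were whole within 0.15 of a read, and voom on these reads called 1503 features. Intervals reflect the spread between these mice.

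Features with a mean of at least 1 FPKM (11378) were fitted as log2(FPKM + 1), a scale that understates changes of low genes, with limma 3.58.1 in R 4.3.3 (mean-variance trend, genotype as the term). P-values were two-sided and adjusted by Benjamini-Hochberg over all features, threshold 0.05. The fit was run on simulated counts with equal spread in both groups and no gradient between libraries. That run cannot show how the fit performs with the unequal spread of these libraries. Promoter windows were RefSeq's. Copies were searched with blastn 2.17.0 in GENCODE M21 transcripts, at 95% identity over 300 bases. Of the 33 genes, 7 had a copy elsewhere and 14 overlapped another feature; Elovl6's copy stayed at or below 0.044 FPKM.

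All 33 genes are described, and other pathway genes are named where they passed; Soat1, Tcp1, Ctsb and Lpin1 were named after their values were seen. Members and lists were chosen with earlier results of these data known. Protein sequences were not used here. Alternatives changed the pseudocount, filter, scaling, variance model, weights, block and libraries; 2 of them, leaving out SLE1.2.3 mice 2 and 3 together and leaving ribosomal RNA out of the scaling, were chosen after seeing the data.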

Additional observations from a re-analysis of the deposited data

How the results depend on the processing

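The main count of 1733 features past the threshold was 798 with no filter on low values, 1129 with a mean of at least 5 FPKM, 6952 with array weights, 940 with the replicate block, 665 without SLE1.2.3 mice 2 and 3, and 240 to 3701 with 1 library left out. Of the 33 genes, 7 were higher with array weights and 0 to 1 with 1 library left out, against 0 in the main test. Lower were 0 with no filter, 0 with a common FPKM sum, 1 without a trend, 8 with array weights, 1 with voom, 0 without SLE1.2.3 mice 2 and 3, and 0 to 5 with 1 library left out (5 without SLE1.2.3 mouse 1), against 2. Of the other pathway genes 4 passed with no filter, 36 with array weights, 3 without SLE1.2.3 mice 2 and 3, and 0 to 27 with 1 library left out, against 9. The array-weight fit gave a convergence warning. Deviations of mice of equal number had correlations of -0.004, 0.10 and 0.091, and those of unequal number ran from -0.19 to 0.13. With 3 mice per group this check cannot decide whether the numbers pair the mice, and the labels do not say. With the replicate block Elovl6 and Acat2 passed (limma adjusted p = 0.039 and 0.026) and Stard4 did not (0.075).

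Over single genes and alternatives 550 comparisons kept direction and call, 18 lost a call, 20 gained one and 37 changed sign, all in genes that did not pass. Signs changed with array weights in Mvk (0.037), Pmvk (0.10) and Dhcr7 (0.016). With a common FPKM sum they changed in Pmvk (0.11), Sc5d (0.047), Dhcr7 (0.0052), Srebf2 (0.023), Scap (0.035) and Elovl5 (0.0235), with quantile normalization in Mvd (-0.013), Idi1 (-0.0037) and Srebf1 (-0.038), with median ratio factors in Srebf1 (-0.023), and with ribosomal RNA left out in Srebf1 (-0.0086). Without SLE1.2.3 mice 2 and 3 they changed in Pmvk (0.16), Idi1 (-0.20), Fdps (0.045), Sc5d (0.031), Insig1 (0.11), Acaca (-0.066), Fasn (-0.022), Scd1 (0.21), Scd2 (0.022) and Abcg1 (0.27). With 1 library left out the log2 change ran from -0.42 to 0.06 in Abcg1, -0.045 to 0.20 in Fasn, -0.055 to 0.16 in Idi1, -0.12 to 0.26 in Mvd, -0.086 to 0.14 in Pmvk, -0.14 to 0.016 in Sc5d and -0.070 to 0.13 in Srebf1. The cause of these changes was not tested. Every one of the 33 genes had at least 259 reads in each library.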
